A study of Homo sapiens with 9 samples.

Results

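The genes described are 43 genes of lipogenesis and lipid droplets, taken by symbol from a list made with earlier results of these data known. All 43 were found among the 27800 symbols of the deposited table. They were followed in Huh7, an established human hepatocellular carcinoma line grown in DMEM with 10% serum, by sequencing of total RNA in 9 libraries. The control was 3 libraries of vehicle-treated cells. FIDAS-5, an inhibitor of the methionine adenosyltransferase MAT2A, was measured in 3 further libraries after treatment at 5 uM for 48 h, and JQ1, an inhibitor of the BET bromodomain proteins, in another 3 after treatment at 0.5 uM for 48 h. The labels name neither the vehicle nor how long it was applied, and they leave unsaid if replicate libraries were grown separately; p-values therefore reflect no more than the scatter among these 9 libraries, which may be technical. Huh7 is 1 tumour line, and each compound was given at 1 dose and 1 time.

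Hepatocytes build fatty acids from acetyl-CoA, lengthen and desaturate them, and join them to glycerol to give triglyceride. Triglyceride leaves the endoplasmic reticulum membrane as droplets whose surface is coated by perilipins and CIDE proteins, and lipases at that surface release the fatty acids again. SREBP-1 and the carbohydrate-responsive factor ChREBP drive transcription of many enzymes of the pathway, and sterol response elements and E-boxes are the sequences these factors are known to bind.

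Promoters are printed for 4 members whose genes differed between the compounds in size or direction of change: CIDEC rose with FIDAS-5 and fell with JQ1, PLIN2 passed the test with FIDAS-5 and SCD with JQ1, and PNPLA2 rose with both but further with JQ1. Other members that differed between the compounds, such as ACSL5, PLIN3 and AGPAT2, are not printed. The printed windows hold the only sterol response elements found among the members, and for CIDEC the start site with a match is shown. They therefore do not represent the members that differed. CIDEC and PLIN2 code for droplet proteins, PNPLA2 for a triglyceride lipase and SCD for a desaturase. Each window of 300 bases covers 250 bases before and 50 after a start site in RefSeq (GRCh38.p14) and reads 5′ to 3′ on the strand of the gene. Capitals mark matches to the motifs searched on both strands: the sterol response element TCACNCCAC, the E-box CACGTG, the CCAAT box CCAAT, the xenobiotic response element TNGCGTG and the PPAR response element (the letters AGGTCA repeated after 1 spacer base). CIDEC lies on chr3:9878763-9879062 (minus strand; the second of 2 start sites), PNPLA2 on chr11:818664-818963 (plus strand), PLIN2 on chr9:19127443-19127742 (minus strand) and SCD on chr10:100346983-100347282 (plus strand).
CIDEC: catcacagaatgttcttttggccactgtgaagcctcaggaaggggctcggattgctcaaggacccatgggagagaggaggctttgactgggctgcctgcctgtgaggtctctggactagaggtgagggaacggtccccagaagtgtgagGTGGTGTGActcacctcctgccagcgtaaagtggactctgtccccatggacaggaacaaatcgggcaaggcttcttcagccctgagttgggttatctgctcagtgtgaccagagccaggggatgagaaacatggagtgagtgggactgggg
PNPLA2: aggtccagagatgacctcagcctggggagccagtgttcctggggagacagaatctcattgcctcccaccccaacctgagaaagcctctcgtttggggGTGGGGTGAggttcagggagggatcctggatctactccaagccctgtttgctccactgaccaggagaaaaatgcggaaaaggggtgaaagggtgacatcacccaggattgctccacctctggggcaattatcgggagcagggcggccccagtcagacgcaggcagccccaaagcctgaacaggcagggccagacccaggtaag
PLIN2: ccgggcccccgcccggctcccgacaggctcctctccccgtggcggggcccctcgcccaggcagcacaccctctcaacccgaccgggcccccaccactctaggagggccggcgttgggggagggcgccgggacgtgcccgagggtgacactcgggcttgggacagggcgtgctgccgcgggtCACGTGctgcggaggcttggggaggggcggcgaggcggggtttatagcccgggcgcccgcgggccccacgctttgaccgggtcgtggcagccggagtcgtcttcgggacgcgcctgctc
SCD: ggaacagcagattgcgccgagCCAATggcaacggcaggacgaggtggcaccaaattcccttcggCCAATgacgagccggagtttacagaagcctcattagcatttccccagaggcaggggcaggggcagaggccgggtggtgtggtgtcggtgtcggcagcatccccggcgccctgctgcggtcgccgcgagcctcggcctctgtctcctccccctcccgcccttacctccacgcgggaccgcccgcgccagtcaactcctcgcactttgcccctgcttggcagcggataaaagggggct
The capitals in CIDEC and PNPLA2 are the sterol response element read on the opposite strand, 101 and 153 bases before the start. The window at the other start site of CIDEC (chr3:9880204-9880503) held no match to any motif searched. The capitals in PLIN2 are an E-box, 69 bases before the start, and those in SCD are 2 CCAAT boxes.

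RefSeq gave windows for 36 of the 43 members, 56 windows in all. The sterol response element was in 2 of the 56 (3.57%), those printed for CIDEC and PNPLA2, beside 1.13% of all 35116 promoter windows. The E-box was in 3 (5.36% beside 7.26%), in PLIN2, ELOVL5 and LPIN2. The CCAAT box was in 24 (42.9% beside 34.6%), in 19 members. The xenobiotic response element was in 2 windows of ACACA (3.57% beside 5.51%), and the PPAR response element in none (0.0228% of all windows). No match overlapped a match to another motif. A match is a description of letters and not evidence of binding. FASN, DGAT1, DGAT2, LPIN3, PNPLA3, HILPDA and MGLL had no window.

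Values were deposited as TPM, the level of a transcript within its library, corrected for transcript length and scaled so that each library sums to 1000000. TPM keeps no read counts, so neither depth nor counting error nor a detection limit is known. Protein-coding genes held 27.6 to 34.0% of a library. All 11 liver markers were above 1 TPM, including ALB and HNF4A. Of 9 adipocyte markers, LPL was listed at 0 in every library, FABP4, LEP, CD36 and ADIPOQ stayed at or under 0.426 TPM, AQP7 lay at 0.321 to 1.10 and CFD at 0.952 to 1.97 TPM, PPARG at 11.9 to 78.2 TPM, and RBP4, also a hepatocyte product, at 1579 to 2351 TPM. Of 6 cholangiocyte markers KRT7 was listed at 0, CFTR was at or under 0.119 TPM, and SOX9 (13.4 to 39.2 TPM), EPCAM (2.90 to 11.0), KRT19 (0.641 to 4.21) and MUC1 (0.0456 to 2.14) were detected. Of 6 fibroblast and endothelial markers CDH5 was listed at 0, VWF, DCN, COL1A1 and COL3A1 were at or under 0.174 TPM, and PECAM1 was at 1.28 to 16.5 TPM. Tests were made on log2(TPM + 1) with limma over 13573 genes that reached 1 TPM in at least 3 libraries. A gene was called when its p, adjusted by the Benjamini-Hochberg method, was under 0.05, and fold changes below are on that scale, which understates the change of genes at a few TPM. As in all bulk RNA, fewer cells of a type and less RNA per cell cannot be told apart.

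Of the 43 members, 38 were tested. PLIN1, PLIN4, LIPE, THRSP and G0S2 were below the filter. PLIN1 and PLIN4 are perilipins best known from adipocytes, and stayed at 0.0681 to 0.29 TPM and 0.131 to 0.612 TPM over all libraries. The hormone-sensitive lipase LIPE lay at 0.0532 to 0.272 TPM and the lipogenic protein THRSP at 0.121 to 0.554 TPM. G0S2, an inhibitor of the lipase PNPLA2, was at 0.136, 0.925 and 0.597 TPM with vehicle and at 0.301, 0.307 and 0.14 TPM with FIDAS-5, and was listed at 0 in all 3 JQ1 libraries.

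In vehicle-treated cells the highest levels belonged to the desaturases. SCD was at 498 ± 26.0 TPM (SD, n = 3), FADS2 at 271 ± 86.0 and FADS1 at 132 ± 12.2. The droplet protein PLIN2 followed at 90.7 ± 11.6 TPM and the acetyl-CoA-producing ATP citrate lyase ACLY at 88.3 ± 6.17. PLIN2, ACLY and the next member, ACSL4 (84.3 ± 8.78), did not differ beyond their spread. In all, 3 members were at 100 TPM or more, 20 between 10 and 100, 15 between 1 and 10, and 5 below 1. Together the 43 genes made up 0.575% ± 0.0775 of protein-coding TPM with vehicle, 0.732% ± 0.0437 with FIDAS-5 and 0.911% ± 0.0181 with JQ1. The ranges of the 3 groups, 0.497 to 0.652%, 0.683 to 0.766% and 0.892 to 0.928%, did not overlap.

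**Figure D1:**
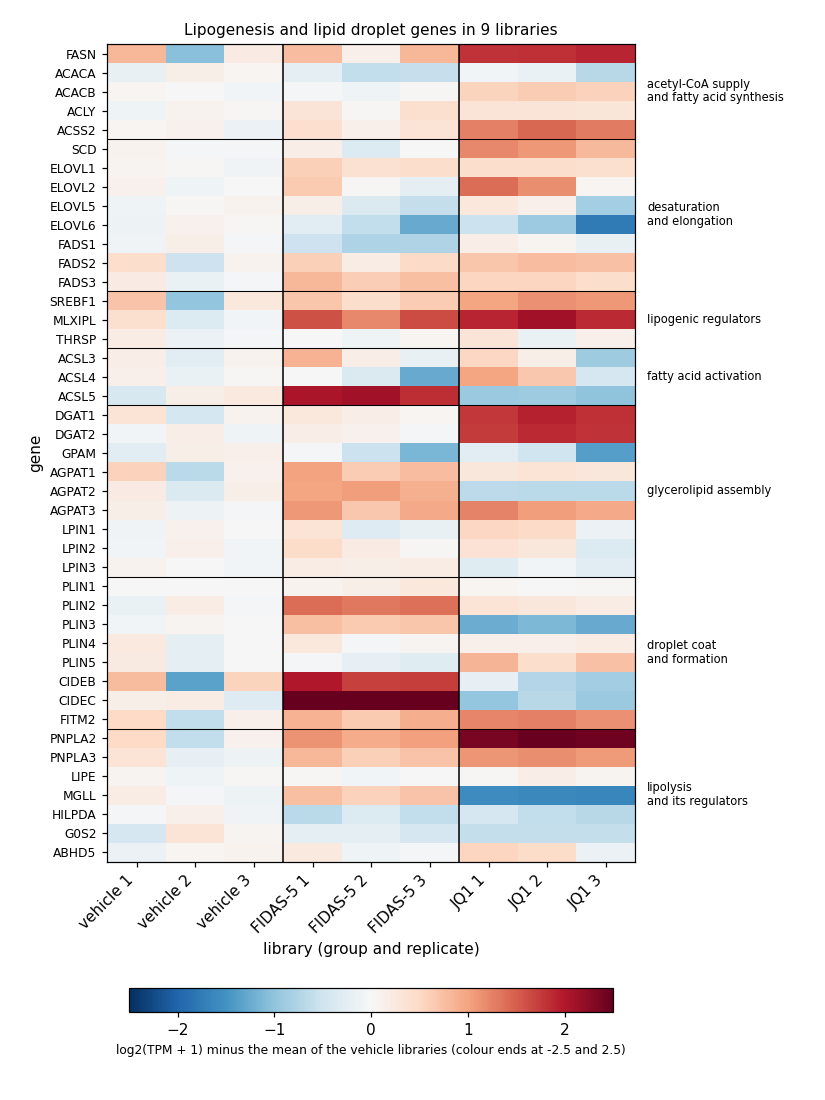
Each cell is log2(TPM + 1) of 1 gene (vertical axis, grouped by role) in 1 library (horizontal axis) minus the mean of the 3 vehicle libraries. Blue is lower and red higher, and colours end at -2.5 and 2.5. CIDEC and ACSL5 are red in all FIDAS-5 libraries and blue in all JQ1 libraries, while DGAT1, DGAT2 and PNPLA2 are redder in the JQ1 libraries than in the FIDAS-5 ones.

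Which of these transcripts moved under the MAT2A inhibitor is the question of the first comparison, FIDAS-5 against vehicle. The droplet genes CIDEC, PLIN2, PLIN3 and CIDEB rose, and so did the fatty acid activating enzyme ACSL5, the lipases PNPLA2, PNPLA3 and MGLL, and the acyltransferases AGPAT2 and AGPAT3. The enzymes that make fatty acids did not pass the test, FASN, ACACA, ACACB, ACLY and ACSS2 included. Of 38 tested members 13 rose and 2 fell, which is 39.5%, beside 20.2% of all tested genes (12.6% higher and 7.6% lower). Because the members were chosen with earlier results known, such shares and medians, here and in the later comparisons, describe the list and do not test it. The median log2 fold change of the members was 0.29 beside -0.02 over all tested genes. The FIDAS-5 libraries did not overlap the vehicle libraries for 21 members, 17 higher and 4 lower, beside 39.3% of all tested genes (20.9% higher and 18.4% lower). With FIDAS-5 replicate 3 and JQ1 replicate 3 left out together 11 members rose and 1 fell, and with vehicle replicate 2 left out as well 11 rose and 0 fell. Over all 13573 tested genes 1460 rose and 887 fell in the first case, and 1239 and 753 in the second, against 1711 and 1031 as reported.

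The comparison of JQ1 with vehicle asks the same of the BET inhibitor. Fatty acid synthase, the desaturase SCD, both diacylglycerol acyltransferases DGAT1 and DGAT2, the lipase PNPLA2 and both tested transcription factors rose. The droplet genes CIDEC and PLIN3, the lipase MGLL, ACSL5 and AGPAT2 fell. Of 38 tested members 16 rose and 7 fell, 60.5%, beside 38.5% of all tested genes (19% higher and 19.4% lower). Their median was 0.31 beside -0.01 for all tested genes. Libraries did not overlap for 25 members, 17 higher and 8 lower, beside 50.7% of all tested genes (24.5% higher and 26.2% lower). Without FIDAS-5 replicate 3 and JQ1 replicate 3 the numbers of members were 17 and 7, and without vehicle replicate 2 too, 13 and 7. Over all 13573 tested genes they were 3225 and 2298, then 2927 and 2127, against 2582 and 2637 as reported.

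The compounds differ in structure and dose, and both comparisons use the same vehicle libraries, so JQ1 was also compared with FIDAS-5 directly. FASN, ACACB, SCD, FADS1, DGAT1, DGAT2, PNPLA2, PLIN5 and ACSS2 were higher with JQ1, and AGPAT2, LPIN3, PLIN2, PLIN3, CIDEB, CIDEC, MGLL and ACSL5 were lower. These 17 of 38 (44.7%) stand beside 34.8% of all tested genes (16.4% higher and 18.5% lower). Libraries of the compounds did not overlap for 24 members, 14 higher and 10 lower with JQ1, beside 47.6% of all tested genes (22.7% higher and 25% lower). The median was 0.17 beside 0.05. AGPAT2, PLIN3, CIDEC, MGLL and ACSL5 rose with FIDAS-5 and fell with JQ1 against vehicle. Some further members passed in the direct comparison once 1 library was left out. These were ELOVL2 (1.13, adjusted p = 0.00761), ACSL4 (1.38, adjusted p = 0.0112) and ABHD5 (0.47, adjusted p = 0.0407) without JQ1 replicate 3, SREBF1 (0.49, adjusted p = 0.0386) and AGPAT1 (-0.50, adjusted p = 0.0412) without vehicle replicate 2, and PNPLA3 (0.40, adjusted p = 0.0271) without vehicle replicate 1.

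**Figure D2:**
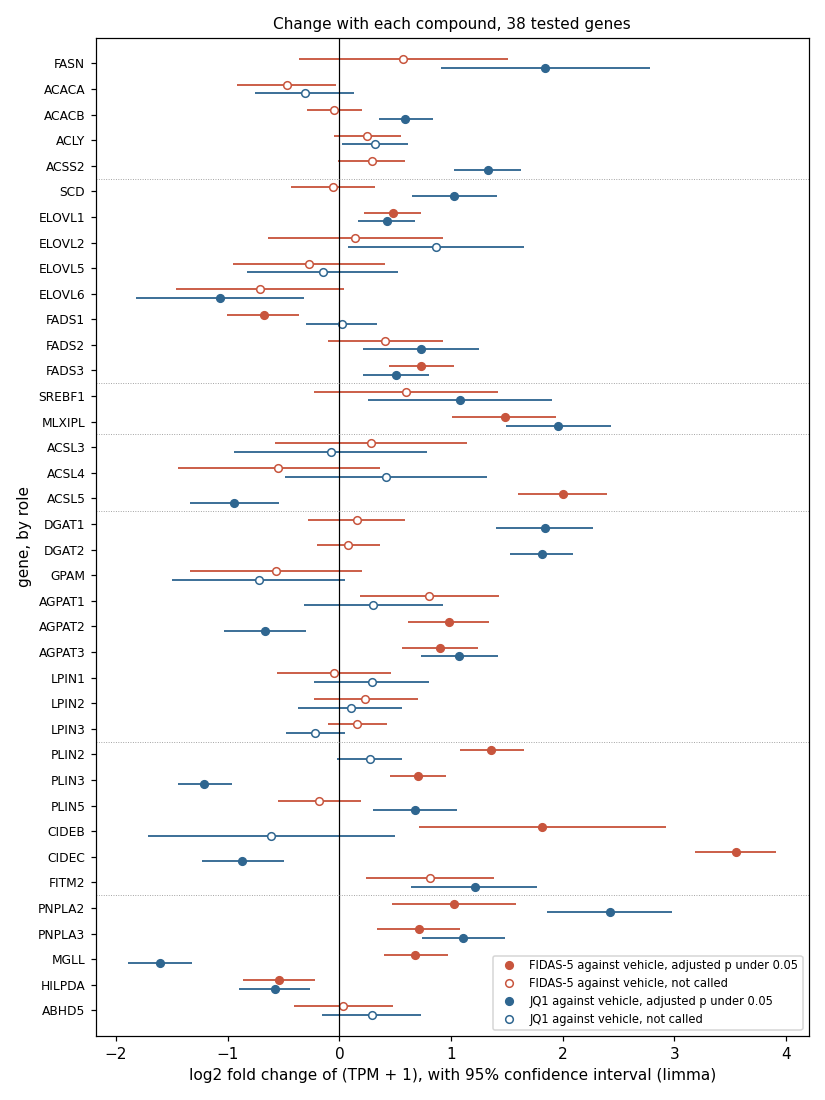
Log2 fold change of (TPM + 1) against vehicle (horizontal axis) for the 38 tested genes (vertical axis, by role), with 95% confidence intervals from limma. Red is FIDAS-5 and blue is JQ1, filled points passed an adjusted p of 0.05 and open points did not. CIDEC lies farthest right for FIDAS-5 at 3.55, PNPLA2 for JQ1 at 2.42, and the enzymes DGAT1 and DGAT2 lie near 0 with FIDAS-5.

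Among the genes that supply acetyl-CoA and build fatty acids, 3 of 5 rose with JQ1 and 0 of 5 passed with FIDAS-5 in limma, where 1 of them, ACACA, was lower at an unadjusted p under 0.05. That is 60% with JQ1 beside 38.5% of all tested genes, and 0% with FIDAS-5 beside 20.2%. FASN, the synthase that assembles palmitate (chromosome 17, 82078338 to 82098236), was at 112, 30.0 and 72.9 TPM with vehicle, at 108, 68.2 and 113 TPM with FIDAS-5 and at 222, 225 and 238 TPM with JQ1. The JQ1 libraries lay above all others, while the vehicle and FIDAS-5 libraries overlapped. The log2 fold change was 1.84 with JQ1 (SE 0.41, adjusted p = 0.00763, limma) and 0.57 with FIDAS-5 (SE 0.41, adjusted p = 0.368). JQ1 exceeded FIDAS-5 by 1.27 (adjusted p = 0.0412), a call that was lost when vehicle replicate 3 or any 1 library of either treated group was left out (adjusted p = 0.0604 to 0.143), with a pseudocount of 0.1 (0.0516) or without the filter on low values (0.0839). ACSS2, which makes acetyl-CoA from acetate, was at 15.5, 16.2 and 13.4 TPM with vehicle, 20.3, 16.5 and 19.2 TPM with FIDAS-5 and 37.3, 42.0 and 38.4 TPM with JQ1. Its level was more than doubled in every JQ1 library, and it rose by 1.33 on the log2 scale (SE 0.13, adjusted p = 0.00012), and with FIDAS-5 the change was 0.29 (adjusted p = 0.157).

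The acetyl-CoA carboxylases make malonyl-CoA, ACACA in the cytosol and ACACB at the mitochondrial surface. ACACB rose with JQ1 by 0.59 (SE 0.11, adjusted p = 0.0028), from 1.31 ± 0.103 to 2.49 ± 0.0923 TPM, and was at 1.24 ± 0.118 TPM with FIDAS-5. ACACA was at 22.4 ± 2.74, 15.9 ± 2.62 and 18.1 ± 4.13 TPM in the 3 groups and passed in no comparison. Its change of -0.47 with FIDAS-5 (adjusted p = 0.127) passed with median-of-ratios scaling, quantile normalization or the GC trend removed (adjusted p = 0.031, 0.0159 and 0.0124), and its change with JQ1 did so once corrected for GC content (-0.27, adjusted p = 0.0457). The share of ACACB in the summed TPM of the pair was 5.60% ± 0.992 with vehicle, 7.33% ± 1.25 with FIDAS-5 and 12.4% ± 2.69 with JQ1. ACLY, at 81.7, 93.8 and 89.5 TPM with vehicle, was at 110, 90.1 and 117 TPM with FIDAS-5 and 111, 110 and 109 TPM with JQ1. All JQ1 values of ACLY lay above vehicle, but its change of 0.32 did not pass (adjusted p = 0.0874). With quantile normalization it was 0.47 and passed (limma, adjusted p = 0.0178). The summed level of the 5 genes was 199 ± 32.2 TPM with vehicle, 238 ± 41.5 with FIDAS-5 and 398 ± 3.74 with JQ1.

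Among the 8 desaturases and elongases, 4 rose and 1 fell with JQ1, and 2 rose and 1 fell with FIDAS-5. These are 62.5% and 37.5%, beside 38.5% and 20.2% of all tested genes. SCD puts the first double bond into saturated fatty acids. It was at 528, 486 and 480 TPM with vehicle, 560, 392 and 500 TPM with FIDAS-5, and 1145, 1055 and 870 TPM with JQ1. Every JQ1 library exceeded every other library, and the vehicle values lay within the range of the FIDAS-5 values. SCD rose by 1.03 with JQ1 (SE 0.17, adjusted p = 0.00149), against -0.06 with FIDAS-5 (SE 0.17, adjusted p = 0.846).

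The 3 FADS genes are neighbours on chromosome 11 (61799627 to 61892224) and moved differently. FADS1, the delta-5 desaturase of polyunsaturated fatty acids, was at 124, 146 and 127 TPM with vehicle, 91.6, 76.4 and 78.2 TPM with FIDAS-5 and 148, 139 and 116 TPM with JQ1. Its FIDAS-5 libraries lay below all others. FADS1 fell by 0.68 with FIDAS-5 (SE 0.14, adjusted p = 0.00999), stood at 0.02 with JQ1 (adjusted p = 0.936), and was higher with JQ1 than with FIDAS-5 by 0.70 (adjusted p = 0.00512). FADS2, the delta-6 desaturase, was at 354, 183 and 277 TPM with vehicle, 397, 296 and 363 TPM with FIDAS-5 and 423, 446 and 436 TPM with JQ1. Vehicle replicate 2 was the lowest library. The rise of FADS2 with JQ1 was 0.73 (SE 0.23, adjusted p = 0.0323), and leaving out vehicle replicate 2 made it 0.47 (adjusted p = 0.0682). That call was also lost when vehicle replicate 3 or a single JQ1 library was dropped (adjusted p between 0.0562 and 0.0861). The same happened without the filter on low values and with only the 6 libraries compared (limma, adjusted p = 0.0573 and 0.0584). FADS3, a less studied relative, rose from 11.2 ± 1.56 TPM to 19.2 ± 1.51 TPM with FIDAS-5 (0.73, SE 0.13, adjusted p = 0.00494) and to 16.2 ± 0.641 TPM with JQ1 (0.51, adjusted p = 0.0147). With the GC trend removed the changes of FADS3 were 0.47 and 0.27. The JQ1 call of FADS3 was lost without vehicle replicate 3 (adjusted p = 0.0537) or JQ1 replicate 2 (adjusted p = 0.0541). Within the FADS sum, FADS1 held 33.0% ± 9.20 with vehicle, 18.2% ± 1.30 with FIDAS-5 and 22.9% ± 2.34 with JQ1.

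Elongases lengthen fatty acids by carbon pairs. ELOVL1, which acts on very long saturated chains, rose with both compounds, from 48.1 ± 2.57 TPM to 67.5 ± 5.18 with FIDAS-5 (0.48, SE 0.11, adjusted p = 0.0172) and 65.1 ± 0.977 with JQ1 (0.43, SE 0.11, adjusted p = 0.0154). The ELOVL1 call with FIDAS-5 was lost without vehicle replicate 3, FIDAS-5 replicate 1 or FIDAS-5 replicate 3 (adjusted p = 0.0581 to 0.0773), and that with JQ1 without vehicle replicate 3 or JQ1 replicate 2 (0.0655 and 0.0556). ELOVL6, which extends palmitate, was at 14.6, 17.3 and 16.5 TPM with vehicle, 13.2, 10.1 and 6.18 TPM with FIDAS-5 and 10.8, 8.05 and 4.04 TPM with JQ1. All treated libraries lay below all vehicle libraries. ELOVL6 fell by 1.07 with JQ1 (SE 0.33, adjusted p = 0.0304) and was at -0.71 with FIDAS-5 (adjusted p = 0.17). The FIDAS-5 change passed with quantile normalization or a GC correction (limma, adjusted p = 0.0378 and 0.0473). The fall with JQ1 missed the threshold without any 1 vehicle library, JQ1 library 2 or JQ1 library 3 (adjusted p = 0.0539 to 0.0866). It also did so without the filter on low values (limma, adjusted p = 0.0652). ELOVL2 and ELOVL5, elongases of polyunsaturated chains, passed in no comparison. ELOVL2 was at 64.9, 54.9 and 25 TPM with JQ1 beside 24.2 ± 1.88 TPM with vehicle, and its change of 0.86 (adjusted p = 0.0784) became 1.27 (adjusted p = 0.00443) without JQ1 replicate 3. It also passed under each of the scalings, protein-coding genes alone and a GC correction (adjusted p = 0.0112, 0.0146, 0.0203 and 0.000671). ELOVL5 had means between 38.6 and 45.8 TPM. The share of ELOVL6 in the ELOVL sum was 12.0% ± 0.951 with vehicle, 6.73% ± 1.45 with FIDAS-5 and 4.47% ± 1.03 with JQ1.

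Both tested regulators rose with JQ1, and 1 of them with FIDAS-5. Of all tested genes 38.5% were called with JQ1 and 20.2% with FIDAS-5. MLXIPL codes for ChREBP, and was at 2.66, 1.19 and 1.66 TPM with vehicle, 7.37, 5.37 and 7.61 TPM with FIDAS-5 and 9.44, 10.9 and 9.11 TPM with JQ1. The 3 groups did not overlap. MLXIPL rose by 1.48 with FIDAS-5 (SE 0.21, adjusted p = 0.00149) and by 1.96 with JQ1 (SE 0.21, adjusted p = 0.000164), and JQ1 and FIDAS-5 differed by 0.48 (adjusted p = 0.101). SREBF1, which codes for SREBP-1, was at 14.4, 3.72 and 10.2 TPM with vehicle, 14.2, 11.7 and 13.5 TPM with FIDAS-5 and 17.6, 19.7 and 18.9 TPM with JQ1. Vehicle replicate 2 stood lowest and the JQ1 libraries highest. SREBF1 rose by 1.08 with JQ1 (SE 0.36, adjusted p = 0.0425), was at 0.60 with FIDAS-5 (adjusted p = 0.288), and rose by 0.59 with JQ1 without vehicle replicate 2 (adjusted p = 0.0319). Leaving out any other single library except vehicle replicate 1 gave SREBF1 an adjusted p of 0.057 to 0.105 with JQ1. Its call was also lost with a pseudocount of 0.1, without the filter on low values and with only the 6 libraries compared (limma, adjusted p = 0.0554, 0.0877 and 0.086).

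Other genes that control these factors were taken from a list of 19, all tested. With FIDAS-5 4 rose (SREBF2, SCAP, MLX and PPARG) and 0 fell, 21.1% of the list beside 20.2% of all tested genes, and none was lower at an unadjusted p under 0.05 (limma). With JQ1 6 rose and 4 fell, 52.6% beside 38.5%. Besides PPARG, those that fell with JQ1 included MLX (-0.48, adjusted p = 0.0133, limma) and PPARGC1B (-0.82, adjusted p = 0.00171). PPARG, the nuclear receptor known for driving fat storage, was at 24.3, 29.2 and 25.9 TPM with vehicle, 75.9, 78.2 and 65.8 TPM with FIDAS-5 and 14.8, 14.3 and 11.9 TPM with JQ1. Its 3 groups were apart, with a rise of 1.44 with FIDAS-5 (SE 0.14, adjusted p = 0.000216) and a fall of 0.90 with JQ1 (log2 fold change -0.90, adjusted p = 0.00108). INSIG1, which holds the SREBP precursors in the endoplasmic reticulum and is itself an SREBP target, rose with JQ1 by 1.38 (SE 0.22, adjusted p = 0.00136) and was at -0.32 with FIDAS-5 (adjusted p = 0.345). SREBF2, the gene of the sterol-regulating SREBP-2, rose by 0.66 and 1.18 with FIDAS-5 and JQ1 (adjusted p = 0.0221 and 0.000733).

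Long-chain acyl-CoA synthetases activate fatty acids for use. ACSL5, known from mitochondria and the endoplasmic reticulum (chromosome 10, 112374116 to 112428376), was at 1.61, 2.80 and 3.06 TPM with vehicle, 13.2, 13.6 and 11.4 TPM with FIDAS-5 and 0.809, 0.853 and 0.702 TPM with JQ1. The groups were fully apart, and the ratio of means to vehicle was 5.11 with FIDAS-5 and 0.316 with JQ1. ACSL5 rose by 2.0 with FIDAS-5 (SE 0.18, adjusted p = 0.000137), had a log2 fold change of -0.94 with JQ1 (adjusted p = 0.00312), and differed between the compounds by -2.94 (adjusted p = 5.87e-06). With a pseudocount of 0.1 the change of ACSL5 with JQ1 was -1.5. ACSL3, a droplet-associated synthetase, and ACSL4, which prefers arachidonate, passed in none of the comparisons. ACSL4 was at 83.9, 64.8 and 34.3 TPM with FIDAS-5 and 167, 135 and 62.7 TPM with JQ1, the lowest in each case being replicate 3. ACSL4 was higher with JQ1 than with FIDAS-5 by 0.96 (adjusted p = 0.0935, or 0.0278 with the replicate number as a block, and 0.00923 to 0.0381 with either scaling, protein-coding genes only or a GC correction). ACSL3 had means from 37.4 to 47.6 TPM. In the sum of ACSL1, ACSL3, ACSL4 and ACSL5, ACSL5 held 1.91% ± 0.686 with vehicle, 10.7% ± 3.04 with FIDAS-5 and 0.522% ± 0.225 with JQ1.

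Of the 9 genes that assemble glycerolipids, 3 rose and 1 fell with JQ1, and 2 rose with FIDAS-5. These shares, 44.4% and 22.2%, are near the 38.5% and 20.2% of all tested genes. DGAT1 and DGAT2, unrelated enzymes that both complete triglyceride, rose with JQ1. DGAT1 (chromosome 8, 144314584 to 144326852) was at 31.0, 17.6 and 25.7 TPM with vehicle, 29.2, 27.1 and 24.9 TPM with FIDAS-5 and 84.2, 94.9 and 87.7 TPM with JQ1. DGAT2 was at 12.4, 14.8 and 12.0 TPM, then 14.8, 14.0 and 12.8 TPM, then 46.0, 50.1 and 48.1 TPM in the same groups. For both genes every JQ1 library lay far above the rest, and the FIDAS-5 libraries overlapped vehicle. DGAT1 rose by 1.84 with JQ1 (SE 0.19, adjusted p = 0.000159) and DGAT2 by 1.81 (SE 0.12, adjusted p = 2.24e-05). With FIDAS-5 the changes were 0.16 (95% confidence interval -0.28 to 0.59) and 0.08 (-0.20 to 0.36). DGAT1 made up 64.6% ± 9.05 of the DGAT sum with vehicle, 66.1% ± 0.211 with FIDAS-5 and 64.9% ± 0.465 with JQ1, while the sum went from 37.8 ± 5.49 to 41.0 ± 3.10 and 137 ± 7.47 TPM.

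The AGPAT enzymes add the second acyl chain. AGPAT2, the member lost in a human lipodystrophy, was at 62.8, 42.0 and 60.6 TPM with vehicle, 109, 113 and 102 TPM with FIDAS-5 and 34.3, 33.5 and 33.6 TPM with JQ1. The groups did not overlap. AGPAT2 rose by 0.98 with FIDAS-5 (SE 0.16, adjusted p = 0.00338), was at -0.67 with JQ1 (SE 0.16, adjusted p = 0.0107) and differed between the compounds by -1.65 (adjusted p = 9.06e-05). With the GC trend removed the 2 changes of AGPAT2 were 0.65 and -1.02. AGPAT3 was at 7.83, 6.26 and 6.78 TPM with vehicle, 15.7, 11.7 and 14.3 TPM with FIDAS-5 and 17.8, 15.3 and 14.2 TPM with JQ1, with all treated libraries above vehicle. AGPAT3 rose by 0.90 (adjusted p = 0.00372) and 1.07 (adjusted p = 0.000754). AGPAT1 passed in no comparison; it was at 86.4, 35.5 and 61.7 TPM with vehicle, and 29.9% of its exon bases lie under genes of the opposite strand, so its level is uncertain. Its change with FIDAS-5 was 0.80 (adjusted p = 0.0731), and 1.09 (adjusted p = 0.015) without vehicle replicate 1, and passed with median-of-ratios scaling, quantile normalization or protein-coding genes only (adjusted p = 0.048, 0.0478 and 0.0356). GPAM, the mitochondrial acyltransferase of the first step, and the phosphatidate phosphatases LPIN1 and LPIN2 passed in no comparison as reported. GPAM had means of 27.0 ± 4.19, 18.6 ± 7.37 and 16.6 ± 6.25 TPM, and its JQ1 libraries all lay below vehicle. Its change with JQ1 of -0.72 (adjusted p = 0.125) passed with median-of-ratios scaling, quantile normalization, protein-coding genes only and a GC correction (adjusted p = 0.0337, 0.0384, 0.0333 and 0.017). LPIN1 and LPIN2 lay between 2.39 and 12.8 TPM over all libraries. LPIN3 was lower with JQ1 than with FIDAS-5 by 0.38 on the log2 scale (log2 fold change -0.38, adjusted p = 0.0328, or 0.0533 with the replicate block), at 1.27 ± 0.219 against 1.95 ± 0.051 TPM, and lost the call without vehicle replicate 3, any FIDAS-5 library, JQ1 replicate 1 or JQ1 replicate 3 (adjusted p = 0.0544 to 0.116).

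Of 25 further genes of fatty acid and glycerolipid synthesis, 20 were tested. With FIDAS-5 3 rose and 1 fell, 20% beside 20.2% of all tested genes, and with JQ1 6 rose and 4 fell, 50% beside 38.5%. Among those that rose with FIDAS-5, ACSL6 reached 1 TPM only in the FIDAS-5 libraries (2.37, 1.73 and 1.49 TPM). It was therefore tested only because of the group where it is high. MOGAT3, an acyltransferase that makes diacylglycerol from monoacylglycerol, was at 11.6, 8.22 and 9.37 TPM with vehicle, 33.0, 30.7 and 31.4 TPM with FIDAS-5 and 2.55, 2.28 and 2.66 TPM with JQ1. The groups were far apart, with changes of 1.62 (adjusted p = 0.000126) and -1.61 (adjusted p = 6.62e-05). GPAT3, an endoplasmic reticulum glycerol-phosphate acyltransferase, rose with FIDAS-5 by 1.26 (adjusted p = 0.000887) and was at -0.36 with JQ1 (adjusted p = 0.1). SLC25A1, the mitochondrial citrate carrier, rose with JQ1 by 1.83 (adjusted p = 6.65e-05) and was at 0.43 with FIDAS-5 (adjusted p = 0.0927).

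Among the droplet coat and formation genes 4 of 6 tested members rose and 0 fell with FIDAS-5 (limma; 0 lower at an unadjusted p under 0.05 as well), and 2 rose and 2 fell with JQ1. Between the compounds 4 were lower and 1 higher with JQ1. Of the 6 tested, 66.7%, 66.7% and 83.3% were called in the 3 comparisons, beside 20.2%, 38.5% and 34.8% of all tested genes. The list has few genes and was chosen with earlier results of these data known. CIDEC promotes fusion of droplets into larger ones and lies on chromosome 3 (9866710 to 9880253). It was at 1.54, 1.62 and 0.839 TPM with vehicle, 27.5, 26.1 and 24.3 TPM with FIDAS-5 and 0.175, 0.421 and 0.213 TPM with JQ1. Without the FIDAS-5 libraries, where it is high, CIDEC would not have reached the filter of 1 TPM in 3 libraries. Each group was apart from the others, and the mean with FIDAS-5 was 19.5 times that with vehicle. CIDEC rose by 3.55 with FIDAS-5 (SE 0.16, adjusted p = 7.98e-06), was at -0.87 with JQ1 (SE 0.16, adjusted p = 0.00322) and differed between JQ1 and FIDAS-5 by -4.41 (adjusted p = 4.95e-07). At these low JQ1 levels the size depends on the scale, and the change with JQ1 was -1.96 with a pseudocount of 0.1 and -1.5 with protein-coding genes only. CIDEC has a pseudogene, CIDECP, with which reads could be shared, and the same holds for SCD (SCDP1) and FADS2 (FADS2P1).

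CIDEB, the hepatocyte relative of CIDEC that also acts in lipoprotein loading, was at 13.5, 2.30 and 11.3 TPM with vehicle, 32.4, 26.5 and 26.8 TPM with FIDAS-5 and 6.25, 4.02 and 3.58 TPM with JQ1. Vehicle replicate 2 lay below all JQ1 libraries and the other vehicle libraries above them. CIDEB rose by 1.81 with FIDAS-5 (SE 0.49, adjusted p = 0.0304) and was at -0.61 with JQ1 (adjusted p = 0.361). Without vehicle replicate 2 the changes of CIDEB were 1.14 (adjusted p = 0.012) and -1.28 (adjusted p = 0.00394). Its call with FIDAS-5 was lost without any 1 FIDAS-5 library (adjusted p = 0.0745 to 0.0847) or without the filter on low values (limma, adjusted p = 0.0711). All exon bases of CIDEB lie under exons of NOP9 and LTB4R2 on the opposite strand. Strand use is not given in the sources used here, so reads of CIDEB and these genes may not be separable. NOP9 was at 11.2 ± 1.71, 11.0 ± 1.05 and 15.2 ± 0.682 TPM with vehicle, FIDAS-5 and JQ1, and LTB4R2 at 0.688 ± 0.310, 1.21 ± 0.479 and 1.34 ± 0.302 TPM.

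Among the perilipins, PLIN2 coats droplets in hepatocytes and was the main one. PLIN2 was at 80.2, 103 and 88.8 TPM with vehicle, 240, 225 and 237 TPM with FIDAS-5 and 115, 110 and 103 TPM with JQ1. Every FIDAS-5 library lay far above all others, while the lowest JQ1 library lay at the level of the highest vehicle library. PLIN2 rose by 1.36 with FIDAS-5 (SE 0.13, adjusted p = 0.000191), was at 0.27 with JQ1 (adjusted p = 0.125; 0.37 with adjusted p = 0.0481 without vehicle replicate 2) and differed between the compounds by -1.09 (adjusted p = 0.000243). With quantile normalization the change of PLIN2 with JQ1 was 0.43 (limma, adjusted p = 0.014). PLIN3, which moves from the cytosol to new droplets, was at 14.9, 16.5 and 15.8 TPM with vehicle, 27.0, 25.3 and 26.1 TPM with FIDAS-5 and 6.11, 6.68 and 5.95 TPM with JQ1. The 3 groups were apart with little spread within each. PLIN3 rose by 0.70 with FIDAS-5 (SE 0.11, adjusted p = 0.00255) and fell by 1.21 with JQ1 (adjusted p = 7.84e-05). PLIN5, which links droplets to mitochondria, was at 1.67, 0.94 and 1.29 TPM with vehicle, 1.22, 0.982 and 0.853 TPM with FIDAS-5 and 3.11, 2.10 and 2.79 TPM with JQ1. Only the JQ1 libraries stood apart from vehicle. PLIN5 rose by 0.68 with JQ1 (SE 0.16, adjusted p = 0.0113) and was at -0.18 with FIDAS-5 (adjusted p = 0.484). PLIN5 shares 21.7% of its exon bases with another gene of the same strand, and PLIN3 17.8% with one of the opposite strand. Members of other roles overlap genes too, with 10.9% of DGAT1 and 13.2% of HILPDA shared on the same strand. FITM2, which partitions lipid into budding droplets, was at 6.82, 2.58 and 4.99 TPM with vehicle, 9.05, 7.72 and 9.33 TPM with FIDAS-5 and 11.8, 12.2 and 11.2 TPM with JQ1. The groups did not overlap, and FITM2 rose by 1.21 with JQ1 (SE 0.25, adjusted p = 0.00527) and was at 0.81 with FIDAS-5 (adjusted p = 0.0506; 1.06 with adjusted p = 0.0133 without vehicle replicate 1). The FIDAS-5 change of FITM2 also passed with a filter at 5 TPM, median-of-ratios scaling or quantile normalization (limma, adjusted p = 0.0466, 0.0366 and 0.0398). It did so too with protein-coding genes only, a GC correction or the replicate block (0.025, 0.0336 and 0.0405).

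**Figure D3:**
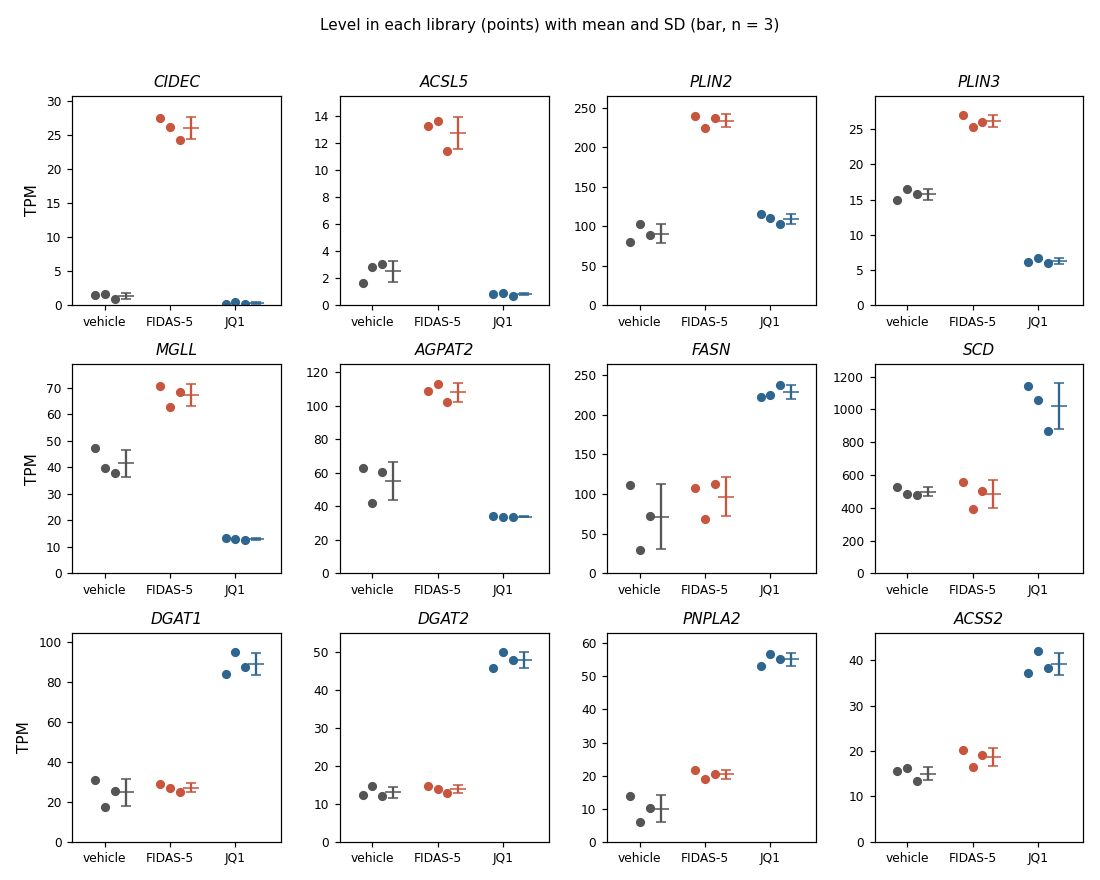
TPM (vertical axis, from 0) of 12 genes in each vehicle, FIDAS-5 and JQ1 library (points), with mean and SD of 3 libraries (bars). CIDEC, ACSL5, PLIN2, PLIN3, MGLL and AGPAT2 are highest with FIDAS-5, and FASN, SCD, DGAT1, DGAT2, PNPLA2 and ACSS2 are highest with JQ1.

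Within the perilipin sum PLIN2 held 83.8% ± 1.53 with vehicle, 89.4% ± 0.164 with FIDAS-5 and 92.0% ± 0.282 with JQ1, and PLIN3 14.6% ± 0.841, 9.99% ± 0.114 and 5.27% ± 0.349. The share of CIDEC in the sum of CIDEB and CIDEC was 19.5% ± 19.0 with vehicle, 47.7% ± 1.82 with FIDAS-5 and 5.93% ± 3.39 with JQ1. The vehicle share spanned 6.90 to 41.3%, with CIDEB low in replicate 2. Summed over the 8 droplet genes the level was 123 ± 4.06, 325 ± 13.1 and 135 ± 7.63 TPM with vehicle, FIDAS-5 and JQ1. Of 19 other droplet proteins 18 were in the table and 13 tested. With FIDAS-5 3 of the 13 rose (BSCL2, METTL7B and AUP1) and 0 fell (1 was lower at an unadjusted p under 0.05, limma), 23.1% beside 20.2% of all tested genes, and with JQ1 4 rose and 1 fell, 38.5% as over all tested genes. The seipin gene BSCL2 rose by 1.25 and 1.22 (adjusted p = 0.00191 and 0.00106), and METTL7B, a droplet-associated methyltransferase-like protein, rose by 1.03 with FIDAS-5 and was at -1.22 with JQ1 (adjusted p = 0.00327 and 0.000686). Of 11 genes of fatty acid uptake and carriage 7 were tested, and FABP1, the liver fatty acid binding protein, rose by 1.10 with FIDAS-5 (adjusted p = 0.0148) and was at -1.10 with JQ1 (adjusted p = 0.00805), while FABP5 fell with both.

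**Figure D4:**
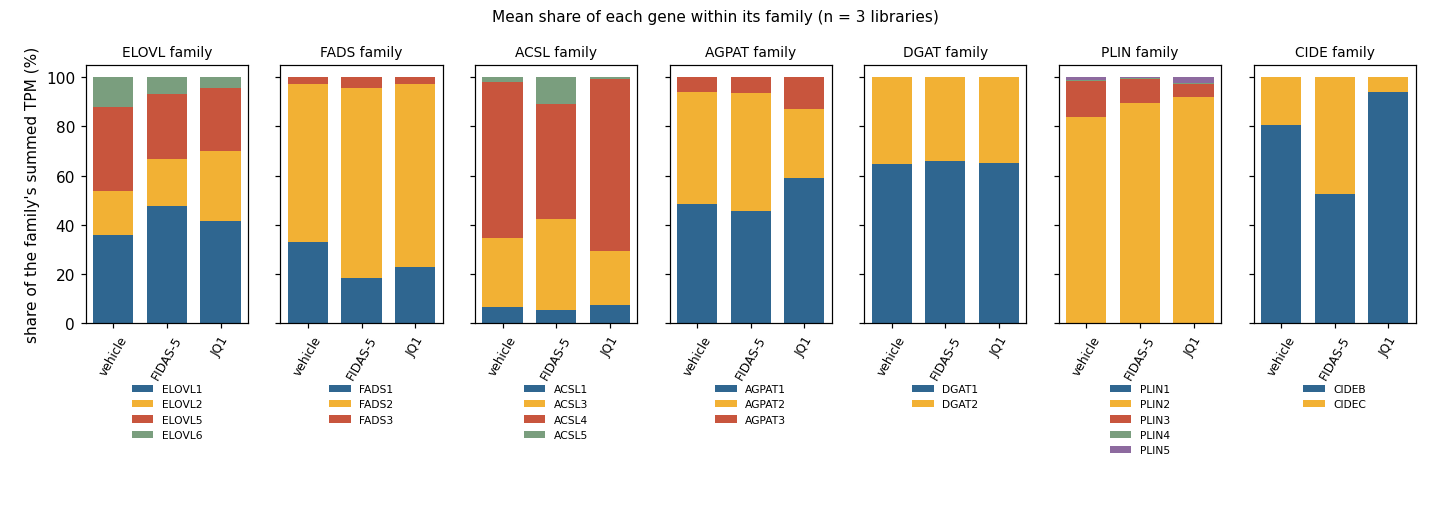
Mean share (%) of each gene in the summed TPM of its family, for 7 families, in 3 libraries each of vehicle, FIDAS-5 and JQ1 (stacked bars, no error shown). The DGAT bars keep nearly the same split in all groups, while CIDEC takes 47.7% of the CIDE sum with FIDAS-5 and 5.93% with JQ1.

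Lipolysis genes split by enzyme. PNPLA2, the lipase ATGL that starts triglyceride breakdown (chromosome 11, 818914 to 825573), was at 13.9, 5.85 and 10.3 TPM with vehicle, 21.8, 18.9 and 20.4 TPM with FIDAS-5 and 53.1, 56.9 and 55.3 TPM with JQ1. The groups did not overlap and the JQ1 mean was 5.50 times the vehicle mean. PNPLA2 rose by 2.42 with JQ1 (SE 0.25, adjusted p = 0.00014) and by 1.03 with FIDAS-5 (SE 0.25, adjusted p = 0.0186), and JQ1 exceeded FIDAS-5 by 1.39 (adjusted p = 0.00255). Its relative PNPLA3, known for a variant tied to fatty liver, was at 10.5, 6.81 and 7.25 TPM with vehicle, 15.1, 12.7 and 13.8 TPM with FIDAS-5 and 18.5, 19.3 and 18.0 TPM with JQ1. Again the groups were apart, with rises of 0.71 (adjusted p = 0.0155) and 1.11 (adjusted p = 0.000908). The FIDAS-5 calls of both were lost without vehicle replicate 3, FIDAS-5 replicate 1 or FIDAS-5 replicate 3 (adjusted p = 0.052 to 0.0593 for PNPLA2 and 0.0532 to 0.0678 for PNPLA3).

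MGLL, the lipase that completes the breakdown of monoacylglycerol, went opposite ways. It was at 47.3, 39.8 and 37.7 TPM with vehicle, 70.8, 62.6 and 68.3 TPM with FIDAS-5 and 13.2, 12.9 and 12.7 TPM with JQ1. No groups overlapped. MGLL rose by 0.68 with FIDAS-5 (SE 0.12, adjusted p = 0.00536), fell by 1.61 with JQ1 (SE 0.12, adjusted p = 3.8e-05), and differed between the compounds by -2.29 (adjusted p = 3.45e-06). HILPDA, an inhibitor of PNPLA2 induced by hypoxia, was lower with both, at 8.17 ± 0.748, 5.33 ± 0.813 and 5.15 ± 0.620 TPM. HILPDA fell by 0.54 with FIDAS-5 (SE 0.14, adjusted p = 0.0273) and by 0.58 with JQ1 (SE 0.14, adjusted p = 0.0113). The fall with FIDAS-5 was lost without vehicle replicate 2 or 3, either of FIDAS-5 replicates 1 and 3, or the second JQ1 library (adjusted p between 0.0509 and 0.102), leaving FADS1 as the 1 member that fell. With median-of-ratios scaling HILPDA also lost its call (limma, adjusted p = 0.0504). ABHD5, the activator of PNPLA2, passed in no comparison, at 5.56 ± 0.569, 5.73 ± 0.875 and 7.16 ± 1.96 TPM, and without JQ1 replicate 3 its change with JQ1 was 0.50 (adjusted p = 0.0318). With the GC trend removed that change was 0.45 (limma, adjusted p = 0.00365).

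Some markers of other cell types were called as well. Of 4 tested leukocyte markers 3 rose with FIDAS-5 (CD68, LYZ and LCP1) and 2 fell with JQ1 (CD68 and LYZ). These are 75% and 50%, beside 20.2% and 38.5% of all tested genes. PECAM1, the 1 tested fibroblast or endothelial marker, rose with FIDAS-5 and fell with JQ1. Of 4 tested cholangiocyte markers MUC1 rose with FIDAS-5 and fell with JQ1, and KRT19 rose with JQ1, which is 25% and 50%. Of 3 tested adipocyte markers PPARG was called, as given above. The summed level of 7 leukocyte markers was 115 to 141 TPM with vehicle, 253 to 312 with FIDAS-5 and 19.2 to 28.1 with JQ1. LYZ alone was at 102 to 125, 227 to 283 and 9.89 to 14.9 TPM, while PTPRC, the defining marker, was at or under 0.918 TPM in every library. The sum of 6 fibroblast and endothelial markers was 6.74 to 9.92, 15.5 to 16.7 and 1.5 to 1.81 TPM, nearly all of it PECAM1, with CDH5 at 0 throughout. These sums went up with FIDAS-5 and down with JQ1, as CIDEC, ACSL5, PLIN3, MGLL and AGPAT2 did, and their part in those results was not tested. The summed 9 adipocyte markers, mostly RBP4, were at 1611 to 1955, 2145 to 2429 and 2134 to 2197 TPM, and the 6 cholangiocyte markers at 26.4 to 32.4, 24.4 to 39.7 and 31.9 to 48.6 TPM. The liver markers summed to 5370 to 6570, 5590 to 7478 and 10283 to 14656 TPM. Liver markers moved too. Of the 11, 3 rose and 0 fell with FIDAS-5 (27.3%), and 8 rose and 2 fell with JQ1 (90.9%).

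Spread within groups varied with the GC content of the members' transcripts. Vehicle replicate 2 was low for GC-rich members such as FASN, SREBF1 and CIDEB, and FIDAS-5 replicate 3 and JQ1 replicate 3 were low for AT-rich ones such as ACSL4, ELOVL2 and GPAM. Over the 38 tested members Spearman's rho between a library's departure from its group mean and GC content was 0.61, -0.45 and -0.01 in vehicle replicates 1, 2 and 3, -0.48, -0.17 and 0.51 in those of FIDAS-5, and -0.69, -0.49 and 0.68 in those of JQ1. Departures within a group sum to 0, so these values are not independent. These correlations are across genes of 1 library and are given as a description. The part of GC content in the group differences was not tested beyond the alternative with its trend removed.

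**Figure D5:**
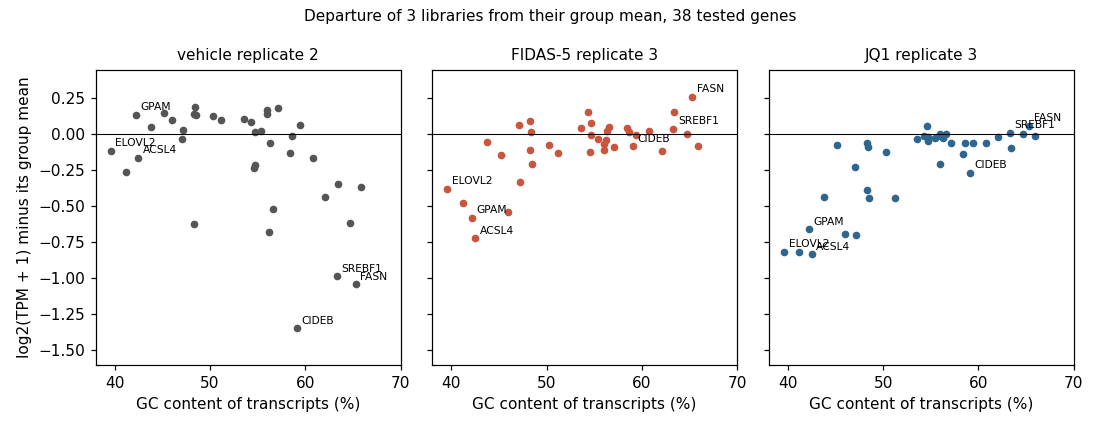
Log2(TPM + 1) of each of 38 tested genes minus its group mean (vertical axis) against the GC content of its transcripts in % (horizontal axis), for vehicle replicate 2, FIDAS-5 replicate 3 and JQ1 replicate 3. Most points at the right fall below 0 in vehicle replicate 2, and most at the left fall below 0 in the other two.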

How the data were processed

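Huh7 libraries of total RNA (3 per group) were taken as GEO's titles name them. The authors deposited TPM per gene symbol in 1 table, made with Salmon against hg38, per the submitters' processing notes; the Salmon version, annotation and strand setting are not given in the sources used here. Values were transformed to log2(TPM + 1) and genes reaching 1 TPM in 3 or more of the 9 libraries were kept. The 9 libraries entered a single limma fit (version 3.58.1, R 4.3.3) with group means (6 residual and 2.86 prior degrees of freedom, no trend, two-sided), and p-values were adjusted over all 13573 genes by the Benjamini-Hochberg method. The fit was tested on simulated data. Plots used matplotlib 3.10.9 (Python 3.11.15).

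The members, role lists, partner lists and markers were chosen with earlier results of these data known. Values in every library were given for members called with an absolute log2 fold change of at least 0.8 and for the 5 highest members in vehicle, and up to 4 genes per partner list by smallest adjusted p could be named. One list of comparison genes is not reported here. Exon overlaps and GC content came from GENCODE 29, coordinates and promoters from RefSeq (GRCh38.p14). Family shares are a gene's TPM over its family's sum in the same library.

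Replicate numbers come from the titles, which do not say what they mark. Deviations from group means of same-numbered libraries correlated at 0.26, 0.102 and 0.422 between FIDAS-5 and JQ1. They were 0.037, 0.16 and 0.005 between vehicle and FIDAS-5 and -0.076, 0.033 and -0.002 between vehicle and JQ1. The reported fit used no pairing in any comparison, and the replicate block was an alternative only. Alternatives were a pseudocount of 0.1, no filter, a filter at 5 TPM, median-of-ratios scaling, quantile normalization, protein-coding genes only, a lowess correction for GC content (13042 genes), only the 6 libraries compared, a replicate block, a trend in the moderation, leaving out each library, and leaving out FIDAS-5 replicate 3 with JQ1 replicate 3. Leaving out vehicle replicate 2 with these was chosen after seeing the data.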

Additional observations from a re-analysis of the deposited data

How the results depend on the processing

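Under the 21 alternatives the number of members called ranged from 10 to 19 with FIDAS-5 (15 reported), from 18 to 28 with JQ1 (23) and from 14 to 21 for JQ1 against FIDAS-5 (17). Calls over all tested genes moved as well. The 10 and 19 members with FIDAS-5 stood beside 1640 or 2017 and 3660 of 13573 genes (2742 reported). With JQ1 the 18 and 28 stood beside 3924 or 3952 of 13573 and 7039 of 13042 genes (5219). Between the compounds the 14 and 21 stood beside 2991 of 8619 and 4625 of 13573 or 6742 of 13042 genes (4726). Leaving out 1 library gave 10 to 17, 18 to 23 and 15 to 19 members in the 3 comparisons. No called member changed direction. Called under every alternative were 9 of 15, 16 of 23 and 15 of 17 members. The replicate number as a block gave 17, 24 and 17 calls. In the comparison of JQ1 with FIDAS-5 the block ended the call of LPIN3, made 1 for ACSL4 and changed no other. No label says that the numbers pair libraries, and not every library correlated best with its own number. Between the compounds, JQ1 replicate 2 correlated at 0.179 with FIDAS-5 replicate 1 and at 0.102 with FIDAS-5 replicate 2. Members that fell with FIDAS-5 numbered 0 to 4 against 2 reported. Quantile normalization gave 1904 genes higher and 1756 lower with FIDAS-5 over all tested genes, against 1711 and 1031. Median-of-ratios scaling, quantile normalization, protein-coding genes only and the GC correction gave medians of all genes from -0.03 to 0.07. Depth is unknown, so no limit of detection could be set for PLIN1, PLIN4, LIPE, THRSP or G0S2, and 3 libraries per group limit the precision.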
